A study of Rattus norvegicus with 19 samples.

Results

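The collagen and laminin genes were followed in the deep motor cortex of rats after a spinal cord lesion. They were taken as every probe set annotated to 1 symbol made of Col, a number, a and a number, or of Lama, Lamb or Lamc and a number. A probe set is a group of short probes on the array that reports 1 transcript region, and 72 of the 31042 probe sets tested qualified, 58 for collagens and 14 for laminins. They stood for 51 of the 14217 genes with a probe set, 41 collagens and 10 laminins, of which 34 had 1 probe set and 17 had several. Where a gene had several, the one with the highest mean over all arrays represented it. Col28a1, Col4a3 and Col6a4 were among the genes not analysed here.

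The study measured RNA on 19 arrays of motor cortex of adult female Fischer 344 rats, cut from the fore- and hindlimb areas and kept only for the deeper layers, where the corticospinal neurons of layer V lie. The dorsal funiculus was cut with a wire knife at cervical segment C3, after a laminectomy, so the injury was in the spinal cord and not in the tissue sampled. The control group had 4 arrays, and the groups taken on days 1, 3, 7, 14 and 49 had 3 each, all of the same strain and sex with no transgene or drug in the labels. Whether the control rats were operated on, and whether each array was a separate rat, is not given in the labels, so p-values measure only the spread between these samples, which may be technical.

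Collagens are proteins of 3 chains wound into a triple helix. Fibrillar collagens form the cables of connective tissue, which in the brain lie mainly in the meninges and around larger vessels, while type IV collagen forms the sheet of the basement membrane. Laminins are crossed trimers of an alpha, a beta and a gamma chain that start the assembly of that sheet and bind integrins and dystroglycan on cells. In the cortex the vessel wall is the chief site of basement membrane, with laminin chains supplied by endothelial cells, pericytes and astrocytes.

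RMA values are log2 signals, so a difference of 1 is a doubling of signal. Levels of different probe sets are not comparable, and every value below compares arrays within a probe set. Of the 19 arrays, 17 were closely alike, with a median correlation with the others between 0.994 and 0.997, and replicate 2 of day 14 (0.931) and replicate 2 of day 49 (0.969) stood apart. The 3' minus 5' signal of beta-actin grows as RNA is degraded or incompletely copied. It was 2.24 on replicate 2 of day 14 and 0.85 on replicate 2 of day 49, against 0.88 to 1.29 in the 17. That of Gapdh was 3.18 and -0.0060 on these arrays, against 0.0011 to 0.196 in the 17. Over the 51 genes, replicate 2 of day 14 lay outside the range of all 17 other arrays in 68.6% (32 above and 3 below), and replicate 2 of day 49 in 68.6% (19 above and 16 below). The shares over all probe sets were 66.6% and 63.5%. Differences at day 14 and day 49 of the genes named below are therefore given with and without these arrays, and the part of RNA quality in them was not tested. Markers of neurons (7 genes, mean log2 signal 10.10 to 10.41 over the 19 arrays) and of layer V neurons (6 genes, 8.14 to 8.72) were present on every array. A lower signal in such tissue can come from fewer cells of a type or from less RNA per cell, which cannot be told apart here.

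The sequences just before the gene starts are shown for the collagens on which the day 1 results turn, and for the pair Col4a1 and Col4a2, whose starts face away from each other. They are the 250 bases upstream of the start, 5' to 3' on the gene's strand, from RefSeq on assembly GRCr8. Capitals mark 1 of 3 promoter motifs on either strand. The first is TATAAA, called the TATA box. The second is CCAAT, which carries its own name. The third is GGGCGG, called the GC box. Col15a1 lies at chr5:66297296-66297545 on the plus strand, Col16a1 at chr5:147672846-147673095 on the plus strand and Col13a1 at chr20:30466801-30467050 on the minus strand.
Col15a1: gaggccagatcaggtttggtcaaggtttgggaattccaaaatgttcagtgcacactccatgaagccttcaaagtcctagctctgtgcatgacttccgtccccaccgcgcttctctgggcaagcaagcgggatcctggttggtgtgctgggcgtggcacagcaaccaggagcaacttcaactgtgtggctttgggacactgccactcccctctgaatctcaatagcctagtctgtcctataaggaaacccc
Col16a1: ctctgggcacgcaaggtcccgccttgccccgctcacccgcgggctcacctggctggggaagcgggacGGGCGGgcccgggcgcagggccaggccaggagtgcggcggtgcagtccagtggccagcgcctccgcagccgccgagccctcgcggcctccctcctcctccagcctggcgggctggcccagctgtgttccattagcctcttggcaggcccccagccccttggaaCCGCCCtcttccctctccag
Col13a1: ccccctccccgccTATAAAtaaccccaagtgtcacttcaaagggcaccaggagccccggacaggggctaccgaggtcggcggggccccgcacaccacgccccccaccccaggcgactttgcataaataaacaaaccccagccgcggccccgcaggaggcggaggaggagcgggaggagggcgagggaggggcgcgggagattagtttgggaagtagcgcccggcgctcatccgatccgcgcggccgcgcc
The Col15a1 window held none of the 3 motifs, that of Col16a1 held 2 GC boxes and that of Col13a1 held 1 TATA box. The start of Col4a1 on the plus strand and that of Col4a2 on the minus strand were 77 bases apart on chromosome 16, and the 76 bases between them, chr16:84885521-84885596 read on the plus strand, held 1 GC box.
Col4a1 to Col4a2 gap: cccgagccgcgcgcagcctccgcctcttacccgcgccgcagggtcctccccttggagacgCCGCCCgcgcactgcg
Type IV chain genes lie in such head-to-head pairs, and the other two pairs had their starts 413 bases (Col4a3 and Col4a4) and 1415 bases (Col4a5 and Col4a6) apart. Windows were found for 41 of the 51 genes, 44 windows in all counting alternative starts. The GC box stood in 24 of the 44 (54.5%), against 30.5% of 33469 windows of this length over all genes. The CCAAT box stood in 12 (27.3%, against 34%) and the TATA box in 5 (11.4%, against 12.9%). The median GC content was 58.6% in these windows and 51.2% over all, and no 2 motifs shared a base. These are matches of letters only.

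At day 1, Col15a1 RNA was lower than in control, and it was the only collagen or laminin gene with a probe set past the threshold in any comparison of the main fit. Col15a1 encodes a multiplexin, a collagen that carries chondroitin sulfate chains and sits where basement membrane meets the fibres below it. The probe set that passed, 1379345_at, is the dimmer of 2 for this gene. It read 6.54, 6.57, 6.71 and 6.35 on the 4 control arrays and 5.95, 5.34 and 5.71 at day 1, so that every day 1 array lay below every control array. The means were 6.54 ± 0.15 (SD, n = 4) and 5.67 ± 0.31 (SD, n = 3). The difference was -0.88 (standard error 0.14), 1.83-fold lower, with an adjusted p of 0.0346 by limma with Benjamini-Hochberg adjustment over all 31042 probe sets. That made 1 of 72 member probe sets called, against 11 of 31042 (0.0354%).

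The other Col15a1 probe set, 1388939_at, read 8.10, 8.00, 8.01 and 7.91 in control and 7.14, 7.30 and 7.96 at day 1. Replicates 1 and 2 lay below all controls, while replicate 3 lay within their range. Its difference was -0.54 (standard error 0.15, adjusted p = 1.0), the same direction but not called. The probe sets thus differed on where replicate 3 lay.

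The Col15a1 call was narrow. With the replicate number as a block, the difference of the dimmer probe set was -0.94 with adjusted p = 0.0585 by limma, and no member was called. Whether like-numbered day 1 and control arrays belong together is not known. Over 27 alternatives its difference stayed between -1.02 and -0.71, the adjusted p lay between 0.00397 and 0.347, and 12 of them called it. It was lost when any of control replicates 1 to 4 or day1 replicates 2 or 3 was left out (adjusted p 0.0635 to 0.347), and also without day3 replicate 1, 2 or 3, day7 replicate 1 or 2, or day14 replicate 1 or 3 (0.0561 to 0.0695), which leave the difference itself at -0.88. Weighting arrays by how closely they follow their group means called 8 of 72 members (11.1%), against 0.564% of all probe sets. That gave day1 replicate 1 a weight of 3.17 and day1 replicate 3 one of 0.766. Without the 2 arrays that stand apart the adjusted p of the dimmer probe set was 0.00789, and without day1 replicate 3 the brighter probe set was called in its place (-0.78, adjusted p = 0.0386).

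**Figure D1:**
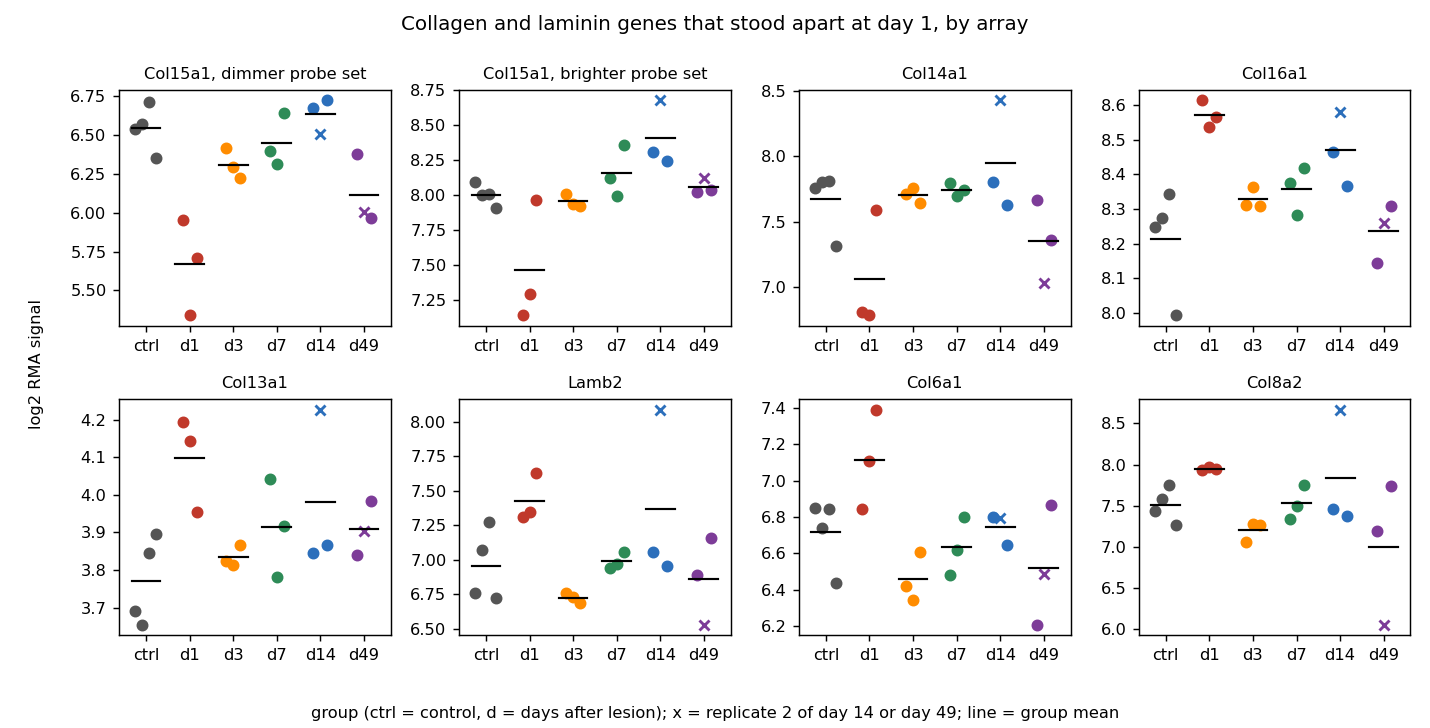
Log2 RMA signal (vertical axis, a separate scale per panel) of 8 probe sets on each of the 19 arrays by group (horizontal axis). Dots are arrays, crosses are replicate 2 of day 14 and of day 49, and lines are group means. The dimmer Col15a1 probe set dips at day 1 on all 3 replicates and the brighter one and Col14a1 on replicates 1 and 2, and the 3 day 1 arrays of Col16a1, Col13a1, Lamb2 and Col8a2 lie above every control array.

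In the days that followed, the dimmer Col15a1 probe set read 6.41, 6.29 and 6.22 at day 3, 6.39, 6.31 and 6.64 at day 7, 6.67, 6.51 and 6.72 at day 14 and 6.38, 6.01 and 5.96 at day 49. The day 3 arrays all lay above the day 1 arrays, a difference of 0.64 that was not called (adjusted p = 0.618), and this comparison shares its day 1 arrays with the one above. The brighter probe set read 8.01, 7.94 and 7.93, 8.12, 8.00 and 8.35, 8.31, 8.68 and 8.25 and 8.02, 8.12 and 8.04 at the same times. All 3 day 14 arrays of it lay above every control array, by 0.40 in the mean (adjusted p = 0.365) and by 0.27 without day 14 replicate 2. At day 49 the probe sets differed in sign, -0.43 for the dimmer and 0.05 for the brighter (-0.37 and 0.02 without replicate 2). Neither was called in the main fit, while the dimmer one was called lower without day49 replicate 1 and with array weights.

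Col18a1, the other multiplexin and the source of the fragment endostatin, read 6.38, 6.43, 6.76 and 6.47 in control and 6.42, 6.51 and 6.37 at day 1. The groups overlapped and the difference was -0.08.

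At a looser limit, a larger share of members than of all probe sets stood apart at day 1. At an unadjusted p under 0.05, limma gave 9 of 72 member probe sets (12.5%), against 1.64% of all probe sets. Of these, 5 were higher (against 1.09%) and 4 lower (against 0.557%). The lower ones were the probe sets of only 2 genes, Col15a1 and Col14a1, while the 5 higher ones were of Col4a2, Col6a1, Col13a1, Col16a1 and Lamb2. With Col15a1 left aside, 7 of 70 remained (10%). Groups without overlap were seen in 10 of 72 (13.9%), against 6.94%, and in 9 of 70 with Col15a1 left aside. None of the members other than Col15a1 passed the adjusted threshold in the main fit, so the values that follow are a description. The median difference of the 51 genes was 0.02, with 31 above and 20 below control, and that of all probe sets was 0.01. With replicate 2 of day 14 and of day 49 left out, 18 of 72 had an unadjusted p under 0.05 (25%, against 7.12%) and still 1 was called (against 0.219%).

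The member nearest to Col15a1 in direction was Col14a1, a fibril-associated collagen that regulates the width of collagen fibrils. It read 7.75, 7.80, 7.81 and 7.31 in control, 6.81, 6.78 and 7.59 at day 1 and 7.71, 7.76 and 7.64 at day 3. As for the brighter Col15a1 probe set, replicates 1 and 2 lay below all controls and replicate 3 among them. The difference was -0.61 (standard error 0.21, 1.52-fold lower, adjusted p = 1.0). A dimmer Col14a1 probe set read 7.22, 7.30, 7.29 and 7.10 in control and 6.89, 6.55 and 7.04 at day 1, with no overlap and a difference of -0.40. Day 3 arrays of both probe sets lay above all day 1 arrays, by 0.64 and 0.58.

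Among the genes on the higher side, Col16a1, a minor fibril-associated collagen that binds integrins, had the smallest p. It read 8.25, 8.27, 8.34 and 7.99 in control, 8.61, 8.54 and 8.57 at day 1 and 8.31, 8.36 and 8.31 at day 3. The day 1 arrays lay close together and above every control array, with a difference of 0.36 (standard error 0.08, 1.28-fold, adjusted p = 0.496). Without control replicate 4, the lowest control array, the difference was 0.28.

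Col13a1, a collagen that spans the cell membrane and is known from the neuromuscular junction, read 3.69, 3.66, 3.85 and 3.90 in control and 4.19, 4.14 and 3.95 at day 1. The groups did not overlap, and the difference was 0.33 (standard error 0.10, adjusted p = 1.0). All 5 genes of its class (Col13a1, Col17a1, Col23a1, Col25a1 and Col26a1) lay above control, by 0.01 to 0.33, and 4 of 5 did without control replicate 4 (Col17a1 then lay below). Its signal was below that of the median probe set (5.60).

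Lamb2 encodes the laminin beta2 chain, found in vessel, kidney and synaptic basement membranes. It read 6.76, 7.07, 7.27 and 6.72 in control, 7.31, 7.35 and 7.63 at day 1 and 6.75, 6.73 and 6.68 at day 3. All day 1 arrays lay above both other groups. The difference from control was 0.47 (standard error 0.22, 1.39-fold, adjusted p = 1.0), the highest among the 51 genes, and that of day 3 from day 1 was -0.71 (adjusted p = 1.0).

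Col6a1, a chain of the beaded filaments that surround basement membranes, read 6.85, 6.74, 6.84 and 6.44 in control, 6.84, 7.11 and 7.39 at day 1 and 6.42, 6.34 and 6.61 at day 3. Its groups overlapped at day 1 by replicate 1 (difference 0.40), and all day 3 arrays lay below all day 1 arrays (-0.66, adjusted p = 0.84). Col8a2, a short-chain collagen known from the cornea and vessels, was singled out after its values were seen. It read 7.44, 7.59, 7.75 and 7.27 in control, 7.93, 7.97 and 7.95 at day 1 and 7.06, 7.28 and 7.26 at day 3. The day 1 arrays lay close together and above both other groups, by 0.44 over control, with a standard error of 0.32 in the fit of 19 arrays and 0.13 in that of 17.

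By structural class, most fibrillar collagens lay below control at day 1, while the tally of the basement membrane chains, chiefly the laminins, shifted with 1 control array. Of 11 fibrillar genes 10 lay below control, with a median of -0.10, from -0.29 (Col3a1) to 0.10 (Col27a1). Of 5 type IV genes 4 lay above, with a median of 0.10, and of 10 laminins 9 lay above, with a median of 0.03. With control replicate 4 left out, which gives the same differences as the replicate block, 10 of 11 fibrillar genes still lay below (median -0.16), but only 3 of 5 type IV genes (median 0.09) and 6 of 10 laminins (median 0.02) lay above. Col4a1, Lama2, Lama5 and Lamb1 were the ones that turned. None of these genes was called in the main fit, and the count over all genes was 7496 above and 6721 below (7163 and 7054 without that array). Genes with several probe sets kept 1 sign over all of them at day 1 in 9 of 17 cases.

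**Figure D2:**
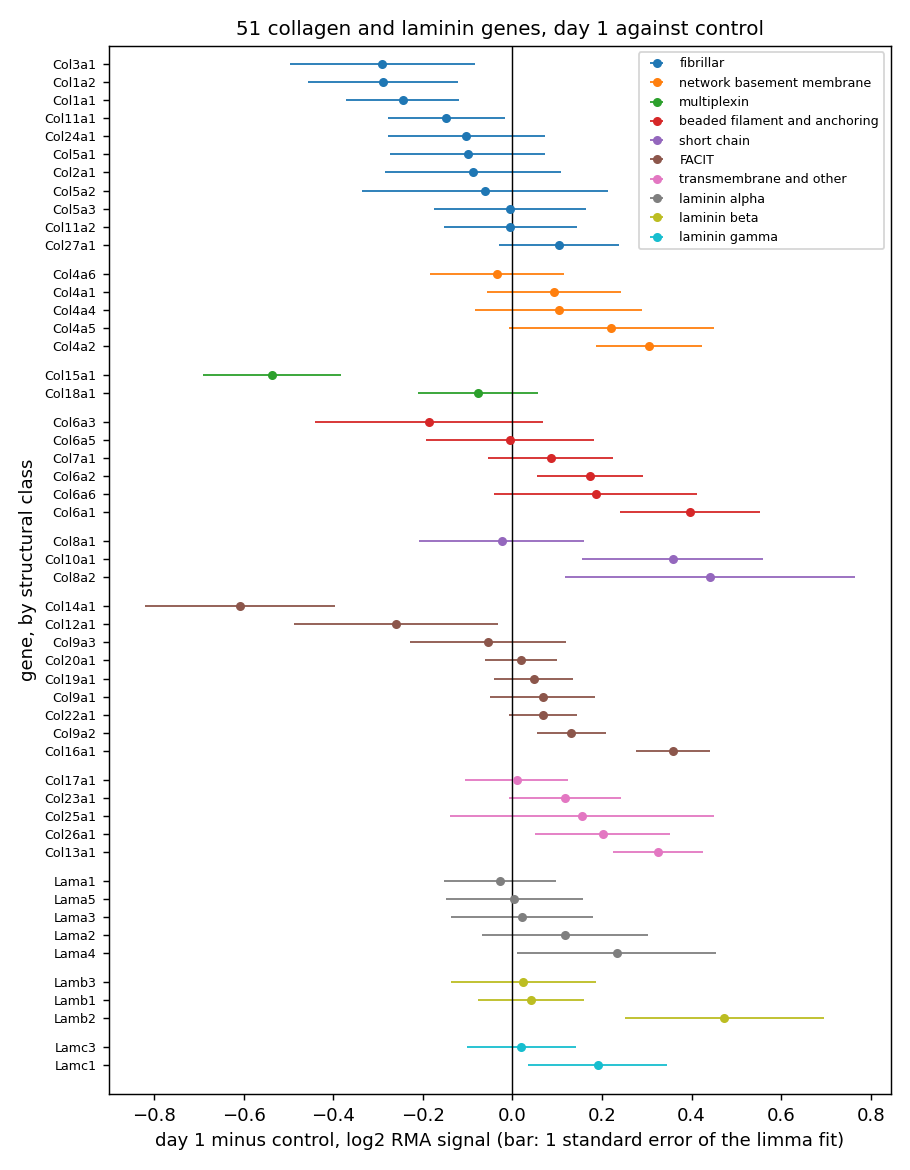
Difference of day 1 from control in log2 RMA signal (horizontal axis) for the representative probe set of each of the 51 genes, grouped and coloured by structural class (vertical axis), with bars of 1 standard error from the limma fit. The fibrillar genes lie mostly left of 0, Col14a1 (-0.61) and Col15a1 (-0.54) lie farthest left, and Lamb2 (0.47) lies farthest right.

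Control replicate 4 was the lowest control array for 35 of the 51 genes (68.6%), against 31.8% of all genes, which widens the control range downwards in most basement membrane chains. Its part in the differences above control was not tested as a cause, and the values without it are given where they were computed for a named gene. For Col4a2 the day 1 difference was 0.21 without it and for Lamb2 0.39.

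In the main fit none of the type IV collagen and laminin chains of the vessel basement membrane was called at any time. Col4a1 and Col4a2 encode the chains of the common type IV trimer. Col4a1 read 8.18, 8.05, 8.43 and 7.72 in control, 8.19, 8.14 and 8.23 at day 1, 8.06, 8.02 and 8.10 at day 3, 8.11, 8.12 and 7.96 at day 7, 8.06, 8.58 and 8.07 at day 14 and 7.95, 7.55 and 7.70 at day 49. Its lesion arrays overlapped control at every time, and its day 1 difference was 0.09. A dimmer Col4a1 probe set also overlapped control at every time, but differed by 0.32 at day 1. Its differences were -0.24 at day 14 (-0.09 without replicate 2) and -0.63 at day 49 (-0.24 without replicate 2). Col4a2 read 6.95, 7.02, 6.90 and 6.59 in control, 7.04, 7.21 and 7.26 at day 1, 6.93, 6.88 and 6.91 at day 3, 7.04, 6.89 and 7.08 at day 7, 7.07, 6.79 and 6.88 at day 14 and 6.98, 6.55 and 6.96 at day 49. Its day 1 arrays all lay above control, by 0.31 (standard error 0.12, adjusted p = 1.0), and at day 49 its difference was -0.03 against -0.36 for Col4a1 (0.11 and -0.27 without replicate 2). Whether these genes differ in response was not tested.

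The laminin chains Lamb1 and Lamc1 are shared by most laminin trimers of vessels and pia. Lamb1 read 8.74, 8.64, 8.78 and 8.39 in control, 8.70, 8.51 and 8.83 at day 1, 8.73, 8.77 and 8.77 at day 3, 8.80, 8.68 and 8.70 at day 7, 8.74, 8.54 and 8.74 at day 14 and 8.47, 7.97 and 8.30 at day 49. At day 49 replicates 2 and 3 lay below all controls and replicate 1 among them, with a difference of -0.39 (standard error 0.12, 1.31-fold lower, adjusted p = 0.306) that was -0.25 without replicate 2. Lamc1 read 8.48, 8.36, 8.52 and 8.08 in control, 8.49, 8.39 and 8.77 at day 1, 8.46, 8.24 and 8.52 at day 3, 8.40, 8.41 and 8.44 at day 7, 8.55, 8.44 and 8.39 at day 14 and 8.35, 7.54 and 8.00 at day 49. It showed the same order of arrays at day 49, with a difference of -0.40 (adjusted p = 0.306) that was -0.18 without replicate 2. A dimmer Lamc1 probe set differed from control by -0.74 at day 14, against 0.10 for the one shown. Without day 14 replicate 2 these were -0.03 and 0.11.

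Of the alpha chains, Lama4, the early endothelial chain, read 7.65, 7.63, 7.80 and 7.47 in control, 7.89, 7.76 and 7.96 at day 1 and 7.52, 7.15 and 7.43 at day 49, and Lama2, the chain of astrocytes and muscle, read 8.18, 8.02, 8.18 and 7.65, 8.08, 7.95 and 8.36 and 8.01, 7.81 and 7.86. Both overlapped control at both times. On day 14 replicate 2 they went opposite ways, Lama4 to 6.50 and Lama2 to 9.10, while replicates 1 and 3 read 7.84 and 7.73 for Lama4 and 8.31 and 8.10 for Lama2. The Lama2 difference at day 14, 0.50 with all arrays, was 0.20 without that array. At day 1 a dimmer Lama4 probe set differed from control by -0.11 without overlap, against 0.23 for the one shown. Lama5, another endothelial chain, read 4.64, 4.62, 4.96 and 4.43 in control and 4.65, 4.62 and 4.74 at day 1, and Lama1, a chain of the pial surface, read 4.25, 4.28, 4.23 and 3.99 and 4.16, 4.15 and 4.17, with overlap in both.

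**Figure D3:**
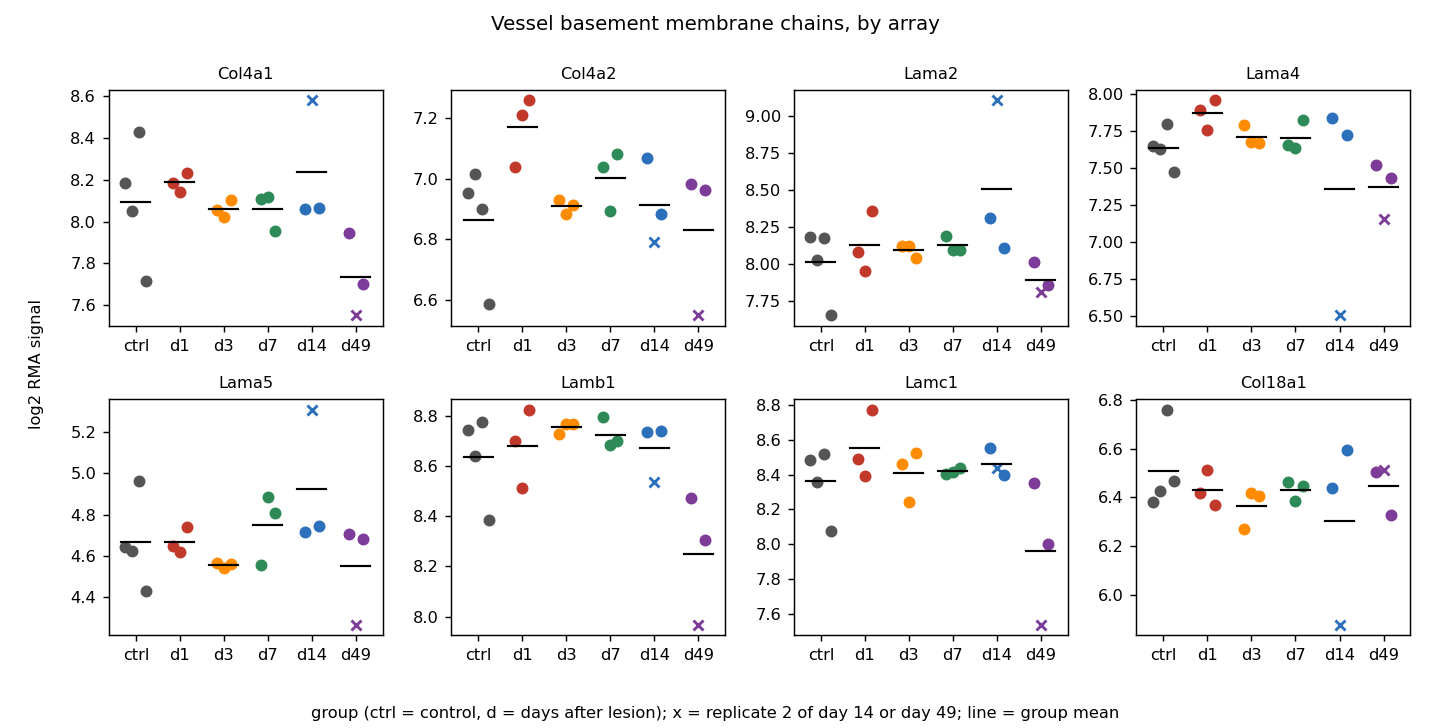
Log2 RMA signal (vertical axis, a separate scale per panel) of 8 vessel basement membrane chains on each of the 19 arrays by group (horizontal axis). Dots are arrays, crosses are replicate 2 of day 14 and of day 49, and lines are group means. At day 14 the cross lies far above the dots in Col4a1, Lama2 and Lama5, far below them in Lama4 and Col18a1 and between them in Lamc1, and the day 49 dots of Lamb1 and Lamc1 lie at or below the control means.

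The markers of endothelial cells were set beside these values. Of 13 listed markers 12 were matched, 11 of the 12 lay above control at day 1 with a median of 0.13, none was called in any comparison, and their mean was 6.80 to 6.90 in control, 6.94 to 7.06 at day 1 and 6.81 to 6.87 at day 3. The day 1 and control arrays of that mean did not overlap. The mean of 7 astrocyte markers also lay above control at day 1 without overlap (6.63 to 6.73 in control, 6.78 to 6.84 at day 1 and 6.70 to 6.72 at day 3), with 5 of the 7 above control. That of 6 layer V neuron markers lay narrowly below (8.45 to 8.56 in control, 8.41 to 8.45 at day 1 and 8.47 to 8.58 at day 3), with 4 of the 6 below. None of these markers was called in any comparison. Whether these cell types have a part in the day 1 values of Lamb2, Col4a2 and Lama4 was not tested.

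The interstitial collagens Col1a1 and Col1a2, the chains of type I collagen, and Col3a1, of type III, varied widely among the control arrays. Col1a1 read 8.47, 8.52, 8.05 and 8.02 in control, 7.89, 7.94 and 8.23 at day 1, 8.11, 8.07 and 8.13 at day 3, 8.14, 8.16 and 8.33 at day 7, 8.23, 8.42 and 8.18 at day 14 and 7.76, 7.75 and 7.97 at day 49. Control replicates 1 and 2 were high, and the day 49 arrays all lay below every control array. The day 49 difference was -0.44 (standard error 0.13, 1.36-fold lower, adjusted p = 0.306), and -0.40 without replicate 2. A dimmer Col1a1 probe set overlapped control at day 49, with a difference of -0.53 (-0.37 without replicate 2).

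Col1a2 read 9.79, 9.82, 9.64 and 9.39 in control, 9.28, 9.27 and 9.56 at day 1, 9.35, 9.43 and 9.51 at day 3, 9.48, 9.50 and 9.47 at day 7, 9.61, 10.37 and 9.44 at day 14 and 9.14, 9.38 and 9.30 at day 49. It too had all 3 day 49 arrays below control, with a difference of -0.39 (adjusted p = 0.313) that was -0.44 without replicate 2. The adjusted p by limma was 0.226 without the 2 arrays that stand apart. The other Col1a2 probe set overlapped control at day 49, with a difference of -0.34 (-0.31 without replicate 2). Col3a1 read 10.13, 10.16, 9.62 and 9.54 in control, 9.45, 9.36 and 9.91 at day 1, 9.49, 9.39 and 9.80 at day 3, 9.54, 9.60 and 9.78 at day 7, 9.90, 10.49 and 9.79 at day 14 and 9.18, 9.23 and 9.73 at day 49. Its day 49 arrays overlapped control through replicate 3, and the difference was -0.49 (adjusted p = 0.311), and -0.41 without replicate 2.

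Markers of meningeal fibroblasts, the cells that make most of these fibrillar collagens at the brain surface, were set beside them. All 18 listed markers were matched, and none was called in any comparison. Their mean was 7.20 to 7.44 in control, 7.08 to 7.56 at day 1, 6.90 to 7.27 at day 3, 7.00 to 7.22 at day 7, 7.25 to 7.34 at day 14 and 6.85 to 7.62 at day 49. In control and at days 1, 3 and 7 the array with the highest marker mean was also the highest for Col1a1, Col3a1, Col4a6 and Col6a3 in all 4 groups. That was 4 of 51 member genes (7.84%), against 1.41% of all genes and 7 of the 18 markers themselves. For Col15a1 it held in 2 of the 4 groups and for Col14a1 in 1. The part of adhering surface tissue in the collagen values was not tested.

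**Figure D4:**
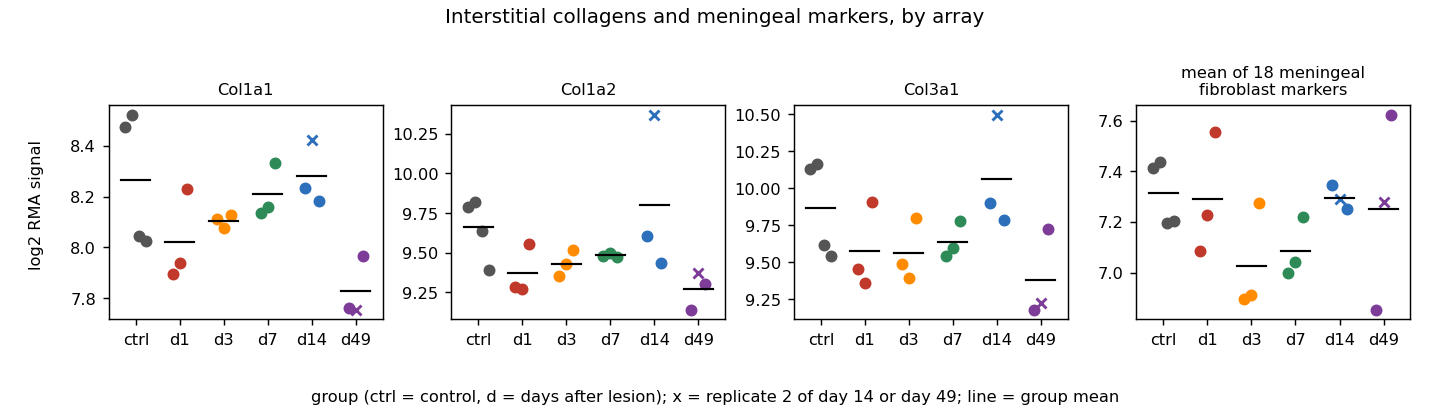
Log2 RMA signal (vertical axis, a separate scale per panel) of Col1a1, Col1a2 and Col3a1 and the mean of 18 meningeal fibroblast markers on each of the 19 arrays by group (horizontal axis). Dots are arrays, crosses are replicate 2 of day 14 and of day 49, and lines are group means. Control replicates 1 and 2 and day 1 replicate 3 are high in all 4 panels. The day 49 arrays of the Col1a1 and Col1a2 probe sets shown lie below every control array.

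At day 3 no member was called by limma, and no probe set at all (0%). At an unadjusted p under 0.05 there were 2 of 72 member probe sets (2.78%), against 0.908%, and 5 had no overlap with control (6.94%, against 5.47%). Without the 2 arrays that stand apart, 6 of 72 had an unadjusted p under 0.05 by limma (8.33%, against 4.56%), and none was called. Col12a1, a fibril-associated collagen, read 6.09, 6.21, 6.09 and 5.90 in control and 5.61, 5.43 and 5.49 at day 3. The groups did not overlap, and the difference was -0.56 (standard error 0.23, adjusted p = 1.0), while its 2 dimmer probe sets differed from control by -0.05 and -0.08. Col19a1, a fibril-associated collagen that interneurons make in the brain, read 5.91, 5.79, 6.04 and 5.73 in control and 6.06, 6.19 and 6.05 at day 3, all higher, with a difference of 0.23 (adjusted p = 1.0). The median difference of the 51 genes was -0.03.

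The step from day 1 to day 3 held more separated groups than any other step among these genes. In 25 of 72 member probe sets the day 3 and day 1 arrays did not overlap (34.7%), against 15.9% of all, with 18 lower at day 3 (25%, against 8.89%). No member was called by limma in the main fit, against 8 of 31042 (0.0258%), and 10 of 72 (13.9%) had an unadjusted p under 0.05, against 1.85%. With the 2 odd arrays left out, 3 members passed, against 0.203% of all probe sets: Lamb2 (-0.71, adjusted p = 0.030), Col8a2 (-0.75, adjusted p = 0.0358) and the dimmer Col14a1 probe set (0.58, adjusted p = 0.0214). A fit of only the 2 groups called Lamb2 (adjusted p = 0.0498) and Col8a2 (adjusted p = 0.0157), against 0.0805% of all probe sets, and array weights called 9 of 72 (12.5%), against 1.58%. Of the 51 genes 36 lay lower at day 3 than at day 1 and 15 higher, with a median of -0.06 against -0.01 over all probe sets. All 7 genes with an unadjusted p under 0.05 at day 1 by their representative moved back from day 1 to day 3, a direction that the shared day 1 arrays favour.

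At day 7 no member was called and none had an unadjusted p under 0.05, against 0% and 0.886% of all probe sets. Without the 2 arrays that stand apart, 2 of 72 had an unadjusted p under 0.05 by limma (2.78%, against 4.89%). The members of smallest p were Col9a1 (0.21 above control) and Col9a2 (0.11), the cartilage-type collagen IX chains, and Col16a1 (0.14). Against day 3, 0 members were called (0% of all) and 0 of 72 had an unadjusted p under 0.05 (against 0.561%).

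At day 14 most members lay above control, to a large part through 1 array. The median of the 51 genes was 0.19, with 42 above control, against 0.07 over all probe sets, and without replicate 2 it was 0.04, with 32 above. No member was called by limma (0% of all), and 7 of 72 (9.72%) had an unadjusted p under 0.05, below the 13.1% of all probe sets. Groups without overlap were seen in 10 of 72 (13.9%), against 9.05%, and all 10 were higher, against 6.43% higher over all. Among these, Col16a1 read 8.46, 8.58 and 8.37, all above control, with a difference of 0.26 that was 0.20 without replicate 2. Col9a1 read 3.82, 3.83, 3.69 and 3.58 in control and 4.03, 4.28 and 3.87 at day 14, with no overlap, a difference of 0.33 and 0.22 without replicate 2. Col24a1, a fibrillar collagen of bone, read 4.60, 4.64, 4.74 and 4.49 in control and 4.61, 5.55 and 5.16 at day 14. The groups overlapped through replicate 1 and its difference of 0.49 was 0.27 without replicate 2. Every adjusted p among members here was 0.365 or higher. Against day 7, 0 members were called (0% of all) and 2 of 72 had an unadjusted p under 0.05, against 5.4%.

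At day 49 most of the brighter genes lay lower and most of the dimmer genes higher than control, with the largest median deviations on replicate 2. Of the 26 genes with a mean signal at or above the median probe set 20 lay below control (median -0.16), and of the 25 dimmer genes 18 lay above (median 0.14). Without replicate 2 the counts were 16 of 26 below (median -0.06) and 16 of 25 above (median 0.03). The same split was not made over all genes, so it cannot be called particular to collagens and laminins. Taken alone, replicate 2 deviated from the control mean by a median of -0.36 in the brighter genes and 0.37 in the dimmer ones, and replicate 1 by -0.07 and 0.0042. By count, 20 of the 26 brighter genes lay below the control mean on replicate 2 and 19 on replicate 1. On replicate 3 the brighter genes were split evenly, 13 above and 13 below. Of the 25 dimmer genes 18 lay above on replicate 2, 13 on replicate 1 and 19 on replicate 3, where their median was 0.07. No member was called by limma (0% of all), and 17 of 72 (23.6%) had an unadjusted p under 0.05, against 15.4%. Groups without overlap were fewer among members than over all, 5 of 72 (6.94%) against 10.1%. Without replicate 2 of days 14 and 49, 9 of 72 had an unadjusted p under 0.05, against 12%.

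**Figure D5:**
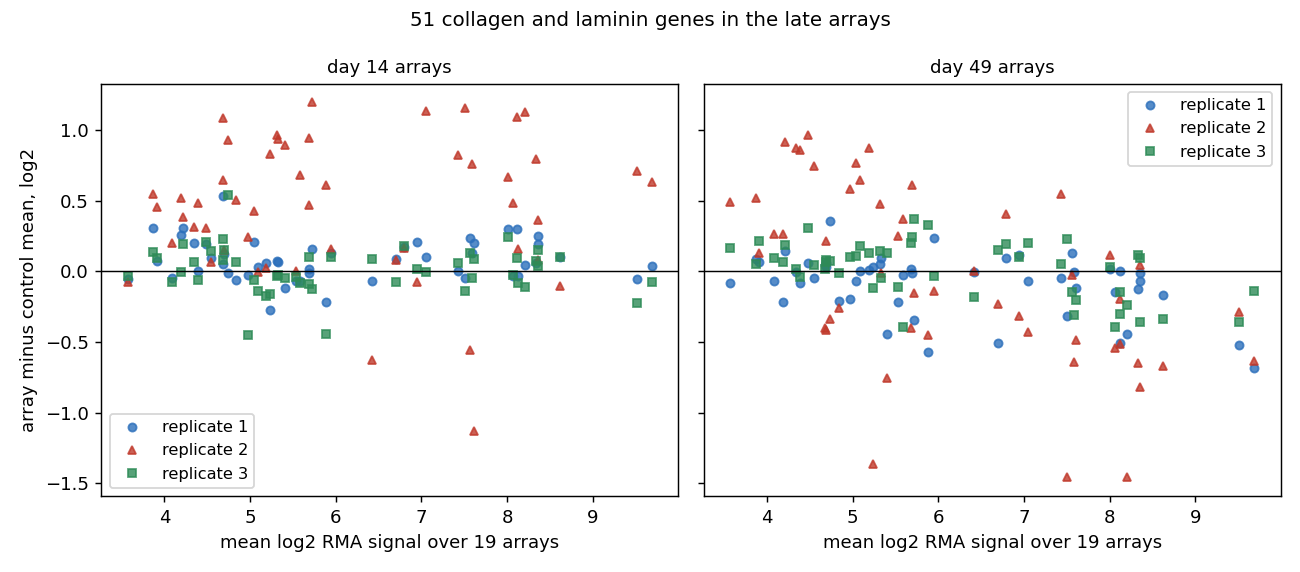
Deviation of each day 14 array (left) and each day 49 array (right) from the control mean in log2 RMA signal (vertical axis) against the mean signal over the 19 arrays (horizontal axis), for the representative probe sets of the 51 genes. At day 49 replicate 2 lies above 0 in 18 of the 25 dimmer genes and below 0 in 20 of the 26 brighter ones, and at day 14 replicate 2 lies above 0 in 44 of 51.

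The lower genes at day 49 were the interstitial and basement membrane chains already given (Col1a1, Col1a2, Col3a1, Col4a1, Lamb1 and Lamc1). Col5a2, a chain that nucleates type I fibrils, was singled out after its values were seen, since it had the largest difference, -0.71. It read 8.57, 8.44, 8.23 and 8.02 in control and 7.88, 6.86 and 8.08 at day 49, with 6.86 on replicate 2, and without that array the difference was -0.34. Among the higher genes, Col7a1, the collagen of skin anchoring fibrils, read 4.24, 4.02, 4.09 and 4.02 in control and 4.24, 5.01 and 4.28 at day 49, a difference of 0.42 that was 0.17 without replicate 2. Col9a2 read 6.78, 6.64, 6.69 and 6.65 in control and 6.79, 7.10 and 6.88 at day 49, with no overlap and a difference of 0.23 (0.14 without replicate 2).

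The day 49 outcome depended on which array was left out. Without day49 replicate 1, which leaves the array that stands apart and 1 other, 10 members were called, against 7.84% of all probe sets. Array weights gave day49 replicate 2 a weight of 0.067 and day49 replicate 3 one of 3.7, and called 16, against 21%. Both alternatives called Lamb1, Lamc1 and the dimmer probe sets of Col4a1 and Col15a1 lower. That of Col15a1 differed from control by -0.56 without day49 replicate 1 (adjusted p = 0.0377 by limma). With array weights it differed by -0.53 (adjusted p = 0.00626 by limma). Both also called Col9a2, Col26a1, Lamc3 and the dimmer probe sets of Col6a2 and Col6a3 higher. Array weights called further members in both directions. Against day 14, no member was called in the main fit (0% of all), 26 of 72 (36.1%) had an unadjusted p under 0.05, against 14.2%, and 34 of the 51 genes lay lower. Array weights called 8 of 72 there (11.1%), close to the 9.62% of all probe sets. Both late arrays that stand apart enter that comparison, and without them the median over the 51 genes was -0.07 in place of -0.21.

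Over all 5 times, the moderated F test of limma called no member, against 4 of 31042 (0.0129%), and 12 of 72 (16.7%) had an unadjusted p under 0.05, against 4.41%. The smallest adjusted p was that of the dimmer Col15a1 probe set, 0.185, and with the 2 odd arrays left out it was 0.0484, the only member called (against 0.135%). Array weights called 26 of 72 (36.1%), against 20.7%.

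Genes that act on these proteins were given from 4 lists, and none of their members was called in any comparison by limma. The partners in the basement membrane, 11 of 12 matched, had 6 above and 5 below control at day 1, and Fn1, the fibronectin gene, differed by -0.57 from day 1 to day 3 (adjusted p = 1.0). Nid2, a nidogen that links laminin to type IV collagen, differed from control by 0.53 at day 14 (0.20 without replicate 2), and Nid1 by -0.25 at day 49 (-0.11 without it).

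The enzymes of collagen folding and crosslinking, 21 of 28 matched, had 16 below and 5 above control at day 3 with a median of -0.09. Lox, which crosslinks collagen and elastin, differed from control by 0.31 at day 1, -0.61 at day 3 and -0.59 at day 49 (-0.39 without replicate 2), and by -0.93 from day 1 to day 3 (adjusted p = 0.906). The receptors, 14 of 19 matched, had medians between -0.11 and 0.03 at the 5 times with all arrays. The collagen-binding receptor gene Ddr1 differed from control by -0.33 at day 14 (-0.12 without replicate 2).

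Of the degrading enzymes and their inhibitors, 14 of 14 matched, Timp4, a metalloproteinase inhibitor known from brain and heart, was 0.62 above control at day 1 (standard error 0.14, adjusted p = 0.455) and differed by -0.60 from day 1 to day 3. Mmp2, a gelatinase that cleaves type IV collagen, differed from control by -0.53 at day 1 (adjusted p = 1.0), and Timp2 by -0.28 at day 49 (adjusted p = 0.306, and -0.25 without replicate 2).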

How the data were processed

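The arrays were probed with biotin-labelled RNA made from 6 ug of total RNA each, per the labels' protocols. The values deposited by the authors are on a log2 scale and were made with RMA, per the submitters' processing notes, and the RMA version was not given in the sources used here. The method subtracts background, gives all arrays 1 common distribution and summarises the probes, so a shift shared by all transcripts would not be seen. The table held 31099 probe sets, and 57 array controls were left out. Symbols of the platform annotation were brought up to date by gene ID (20758) or accession (2), or kept (66). This gave 20826 probe sets with 1 symbol, 436 with several and 9780 with none. No array duplicated another. Scan batches were not analysed here, and a batch that follows the groups cannot be told apart from them.

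Tests were run with limma 3.58.1 (R 4.3.3) on 31042 probe sets, two-sided, with eBayes defaults. A model of 6 group means was fitted over 19 arrays, with 13 residual and 2.76 prior degrees of freedom. P-values were adjusted by Benjamini-Hochberg over all 31042, and the threshold was 0.05. Tested on simulated data for day 1 with 31042 probe sets, it found 18 of 50 changes of size 0.5 (log2), 41 of 50 of size 1, 50 of 50 of size 2 and 48 of 50 of size 3, and made 8 false calls. The simulated arrays all had the same spread, taken from the 19 arrays with the 2 that stand apart among them. These counts therefore need not hold for the real day 1 comparison. The number of arrays limits the precision. The groups share replicate numbers in the labels. Between day 1 and control the residuals of like-numbered arrays correlated at 0.166, 0.117 and 0.269. They correlated at 0.0935, 0.115 and 0.265 between day 7 and control, and at 0.0317, -0.275 and -0.256 between day 3 and day 1. Arrays of unlike number were not compared, so these values cannot show whether the numbers are pairs. The blocked value stands beside the day 1 call as an alternative.

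The members and lists were chosen with earlier results of these data known. The genes named were those with a called probe set, the 3 of smallest p at each time, the 5 of smallest p in the F test, and the main interstitial and vessel chains. Others are said to have been singled out, and from the partner lists genes of small p are named. Alternatives were array centring, a repeated quantile step, leaving out probe sets under the median, trended robust eBayes, array weights, the representative probe sets alone, a replicate block, a fit restricted to the groups compared, both odd arrays left out, and each array left out singly. Plots were made in matplotlib 3.10.9 (Python 3.11.15).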

Additional observations from a re-analysis of the deposited data

Results flagged for a closer look

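In the control group of 4 arrays, Col14a1 had a lowest array of 7.31, replicate 4, set apart from the other control arrays at 7.75 to 7.81. Its gap was 0.894 of the whole range, past the critical value of Dixon for 4 samples. Lama1 had a lowest control array of 3.99, also replicate 4, with a gap of 0.834 of the range. They were 2 of the 24 named genes, and chance flags about 1 in 20 groups.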

How the results depend on the processing

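The Col15a1 call at day 1 depended on the processing. Against 1 member called in the main fit, 0 were called with 1 probe set per gene (the brighter one), with the replicate block and with only the groups compared, 8 with array weights (against 0.564% of all probe sets), and 0 to 1 with each array left out in turn. At day 49, array weights called 16 members (against 21%) in place of 0, and leaving out each array gave 0 to 10, with 10 without day49 replicate 1. For day 3 against day 1, array weights called 9 (against 1.58%), only the groups compared 2 and the fit without both odd arrays 3, in place of 0. For day 49 against day 14, array weights called 8 in place of 0, a share (11.1%) close to the 9.62% of all probe sets. In the F test they called 26 (36.1%, against 20.7%) and the fit without both odd arrays 1, in place of 0. The causes were not tested. Days 3, 7 and 14 against control and days 7 and 14 against the time before had 0 members called under every alternative run. Of the results for named genes, 1060 kept their direction and their side of the threshold, 32 passed it only under an alternative, 15 were lost under one (all of them Col15a1) and none changed sign; only differences picked by the rule or with an unadjusted p under 0.05 were followed. The replicate block changed no other call. Signals near the lower end of the scale lie close to background, which limits the 25 dimmer genes.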
